A study of Mus musculus with 12 samples.

Results

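The genes described here were 10 core effectors of the type I interferon response: *Isg15*, *Usp18*, *Ifit1*, *Ifit2*, *Ifit3*, *Ifit3b*, *Mx1*, *Rsad2*, *Cmpk2* and *Eif2ak2*. They were selected on their RNA-seq values in the comparison of the genotypes given below, so their expression is described and not tested. All 10 were among the 25860 genes listed, and all 10 passed the filter on low values, each with a mean above it in either genotype. The study sorted progenitor CD8+ T cells (T_prog_) from the pancreatic lymph nodes (pLNs) of female NOD.NY8.3 mice, a nonobese diabetic strain whose T cells carry a transgenic receptor for the β cell antigen IGRP. In *UTX TCD* mice, floxed *Kdm6a*, the X-linked gene that encodes the histone demethylase UTX, is deleted by a Cre under the T cell promoter *Lck*. WT mice were described as littermates with the floxed gene and no Cre, so the Cre itself differed between the groups along with the deletion. Both alleles were brought into the NOD strain by repeated backcrossing from B6 mice. RNA-seq and ATAC-seq each had 3 libraries per genotype from separate biological replicates, and the age of these mice is not given in the sources used here. The gate was labelled Ly108+CXCR6- in the sample descriptions and Ly108+CD39- in the methods.

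Type I interferons bind a receptor of the chains IFNAR1 and IFNAR2, whose kinases JAK1 and TYK2 signal to the complex ISGF3. This complex holds STAT2 and IRF9 and binds interferon-stimulated response elements (ISREs) in the promoters of the effector genes. The effectors restrict viral replication and translation, and in T cells type I interferon is also known to affect survival, proliferation and differentiation.

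RNA-seq values were read counts divided by 1 size factor per library. Counted reads came to 146456724, 144503203 and 193568919 in WT replicates 1 to 3 and to 61512402, 175462433 and 187275082 in *UTX TCD* replicates 1 to 3. *UTX TCD* replicate 1 was the shallowest, and the lowest number of reads behind any value of the 10 genes was 405, for *Ifit3b* in WT replicate 2. *Kdm6a* itself had 28365, 28949 and 29172 normalized counts in WT against 24159, 24792 and 24579 in *UTX TCD* mice. All *UTX TCD* libraries were below all WT libraries, and the log2 fold change was −0.23 ± 0.04 (SE; limma adjusted p = 0.00114), under the fold limit for a call given below. These counts sum the whole gene and most of its RNA was still counted, so they do not show whether the floxed exons were lost.

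*Isg15* encodes a ubiquitin-like protein that is joined to other proteins, and *Usp18* encodes the protease that removes it and that also dampens signalling at the receptor. *Isg15* had 2357, 2068 and 2650 normalized counts in WT against 8491, 9299 and 7065 in *UTX TCD* T_prog_ cells. *Usp18* had 4520, 3652 and 3886 in WT against 17460, 15954 and 11632 in *UTX TCD* cells. For both genes the lowest *UTX TCD* library, replicate 3, was above the highest WT library. The mean of *Isg15* went from 2358 ± 291 to 8285 ± 1131 (SD, n = 3 each), a log2 fold change of 1.81 ± 0.11 (SE). For *Usp18* the means were 4019 ± 449 and 15015 ± 3025 (SD, n = 3 each), a log2 fold change of 1.89 ± 0.14 (SE). The ratio of the closest libraries of the 2 genotypes was 2.67 for *Isg15* and 2.57 for *Usp18*.

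The IFIT proteins bind foreign RNA and block its translation. *Ifit1*, whose product recognises RNA with an incompletely methylated cap, had 10209, 7482 and 10482 normalized counts in WT against 34454, 35882 and 24123 in *UTX TCD* cells. *Ifit2* had 7172, 6265 and 7656 in WT against 13519, 14596 and 13262 in *UTX TCD* cells. Neither gene's groups overlapped, and WT replicate 2 and *UTX TCD* replicate 3 were the lowest of their genotypes for both. *Ifit3*, whose product partners the other IFIT proteins, had 3532, 2593 and 4024 in WT against 20845, 23056 and 16477 in *UTX TCD* cells. *Ifit3b*, a close copy of *Ifit3*, had 597, 400 and 654 in WT against 4706, 4753 and 3454 in *UTX TCD* cells. Groups were again apart, and the same libraries were lowest. Log2 fold changes of the family were 1.74 ± 0.16 for *Ifit1*, 0.98 ± 0.07 for *Ifit2*, 2.58 ± 0.16 for *Ifit3* and 2.98 ± 0.19 for *Ifit3b* (SE). *Ifit2* thus had the smallest fold of the 10 genes, with 1.73 between its closest libraries.

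*Ifit3* and *Ifit3b* are uncertain as separate genes: their longest transcripts were 98.0% identical over 1697 aligned bases, and how reads that match both were counted is not given in the sources used here. Counted as 1 gene, an alternative added after seeing the data, the pair had a log2 fold change of 2.65. *Ifit1bl1*, on the opposite strand at chr19:34592888-34662981 (mm10), spans *Ifit3b* and *Ifit1*, and the strand setting of the counting is not stated either, so reads where these genes overlap cannot be told apart. *Usp18* is overlapped in the same way by *Gm44148* and *Eif2ak2* by *Gm26637*, both on the opposite strand.

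*Mx1* encodes a GTPase that traps incoming viruses. It had 2231, 1886 and 2316 normalized counts in WT against 20089, 21095 and 15949 in *UTX TCD* cells, for a log2 fold change of 3.15 ± 0.11 (SE). RefSeq lists *Mx1* as a transcribed pseudogene in the C57BL/6J reference, while these mice are of the NOD strain, and its longest transcript was 81.0% identical to that of *Mx2* over 1706 aligned bases. *Rsad2* encodes viperin, which makes a chain-terminating nucleotide, and had 1204, 1185 and 1237 in WT against 11386, 11769 and 8048 in *UTX TCD* cells. The WT mean of *Rsad2* was 1208 ± 26.5, the smallest WT SD relative to its mean among the 10 genes, and the *UTX TCD* mean was 10401 ± 2047 (SD, n = 3 each). *Cmpk2*, a nucleotide kinase whose product supplies viperin's substrate, had 2302, 1913 and 2457 in WT against 10260, 10862 and 8014 in *UTX TCD* cells. Log2 fold changes were 3.08 ± 0.13 for *Rsad2* and 2.12 ± 0.12 for *Cmpk2* (SE). For these 3 genes the groups did not overlap, and the ratio of the closest libraries was 6.89 for *Mx1*, 6.51 for *Rsad2* and 3.26 for *Cmpk2*.

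*Eif2ak2* encodes PKR, a kinase that senses double-stranded RNA and halts translation by phosphorylating eIF2α. Its normalized counts were 3216, 2882 and 3335 in WT against 10892, 11328 and 8918 in *UTX TCD* cells. The groups did not overlap, and the log2 fold change was 1.72 ± 0.09 (SE).

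**Figure D1:**
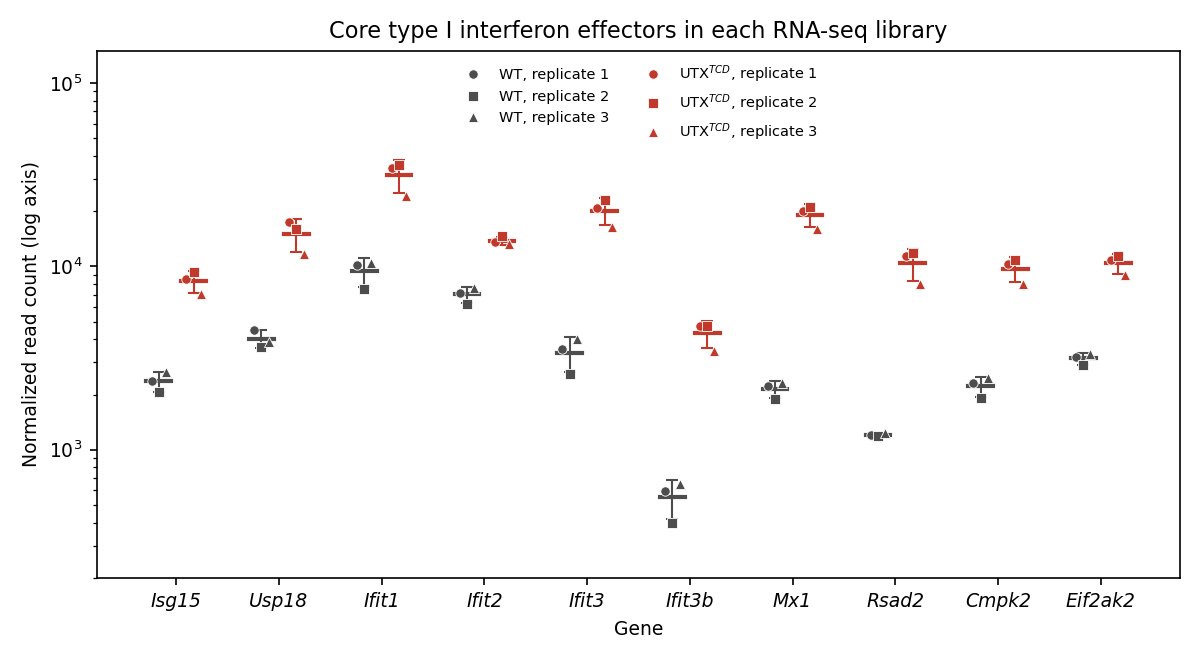
Normalized read counts on a log axis for the 10 effector genes, with 1 point for each of the 3 RNA-seq libraries per genotype, the mean as a bar and the SD as the error bar. WT replicate 2 and *UTX TCD* replicate 3 are the lowest libraries of their genotypes for all 10 genes, and the lowest ratio of closest libraries is 1.73, for *Ifit2*.

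Across the 10 genes, 1 library of each genotype was always the lowest. WT replicate 2 was the lowest WT library for 10 of the 10 genes, with a median deviation of −0.18 from the gene's WT mean on the log2 scale. It was lowest for 39.4% of the 14459 genes tested. *UTX TCD* replicate 3 was likewise lowest for 10 of 10, with a median deviation of −0.27, against 37.3% of genes tested. The highest median deviation was 0.17 in *UTX TCD* cells, in replicate 2, and 0.14 in WT cells, in replicate 3.

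In order of log2 fold change, *Mx1*, *Rsad2* and *Ifit3b* came first, with steps of 0.06 and 0.10 between them. Without WT replicate 2, *Rsad2* was above *Mx1*, at 3.07 and 3.06. Without WT replicate 3, *Ifit3b* was above *Rsad2*, at 3.12 and 3.10. *Ifit3* and *Cmpk2* followed, and then *Usp18*, *Isg15*, *Ifit1* and *Eif2ak2*, with steps of 0.08, 0.07 and 0.02 between them. The order within this last group also moved with single libraries. *Isg15* was above *Usp18* without WT replicate 3 (1.90 and 1.86) or *UTX TCD* replicate 1 (1.79 and 1.77). *Eif2ak2* was above *Ifit1* without WT replicate 2, *UTX TCD* replicate 1 or *UTX TCD* replicate 2. Without *UTX TCD* replicate 3, *Ifit1* and *Isg15* were both at 1.92. *Ifit2* came last, 0.74 below *Eif2ak2*. The steps from *Mx1* to *Ifit3b* and from *Cmpk2* to *Eif2ak2* were each smaller than the summed SEs of the neighbours. The genes share their libraries and were selected on these values, so the SEs give a scale for the steps and are no test of the order.

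A gene was called where the limma fit over all genes gave an adjusted p under 0.05 and a log2 fold change above 0.5 or below −0.5. This held for 2538 of the 14459 genes tested (17.6%), of which 1518 were higher in *UTX TCD* cells (10.5%) and 1020 lower (7.05%). For 25.8% of genes tested, all *UTX TCD* libraries were above all WT libraries. The selected genes met both conditions in 10 of 10 cases, which nothing is read from because the same comparison chose them.

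The 5 other genes whose values over the 6 libraries most resembled the mean standardized profile of the effectors were *Amigo2*, *Shkbp1*, *Grik5*, *Trim30a* and *Naip6*. Pearson's r was 0.9999 for *Amigo2*, 0.9996 for *Shkbp1*, 0.9995 for *Grik5*, 0.9994 for *Trim30a* and 0.9993 for *Naip6*. The 6 points form 2 clusters by genotype, and r was over 0.95 for 1043 of the 14449 genes tested outside the effectors, so the measure describes a shape and carries no p. *Amigo2*, a cell adhesion molecule, averaged 8008 normalized counts in WT against 33636 in *UTX TCD* cells. *Shkbp1* differed far less, with 6169 and 7071.

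The other genes of the pathway came from 10 lists with 178 symbols, 3 of them older names of genes that the lists also hold under the current name. These lists were chosen with earlier results of these data known, so their counts are a description. Of the symbols, 173 were listed in the count table and 152 tested. In *UTX TCD* cells 53 of the tested genes were called higher and 5 were called lower, and the median log2 fold change was 0.27, beside −0.0002 over all genes tested. Over all genes tested, 10.5% were called higher and 7.05% lower, and these shares stand beside the counts of each list below.

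Starting with the ligands, 15 of the 18 type I interferon genes had 0 reads in all 6 libraries, among them *Ifnb1* and all 13 *Ifna* genes. A count of 0 allows up to 3 reads in a library, which is 6.75 normalized counts in *UTX TCD* replicate 1 and 2.21 to 2.97 in the other 5 libraries, for counting error only. *Ifna* genes are near-identical copies, and how reads shared by several were counted is not known here. *Ifnab* and *Ifnz* had at most 3.96 and 1.60 normalized counts, under the filter. Only *Ifnk* was tested, with 17.8, 6.91 and 15.3 in WT against 9.0, 7.21 and 10.3 in *UTX TCD* cells. It was not called, at a log2 fold change of −0.46 ± 0.45 (SE; limma adjusted p = 0.454).

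Among the 7 genes of the receptor and ISGF3, 1 was called. *Stat2* rose from 17119, 16095 and 17406 in WT to 33934, 34072 and 27645 in *UTX TCD* cells, with a log2 fold change of 0.91 ± 0.08 (SE; limma adjusted p = 3.53e-05). *Irf9* passed the p limit but not the fold limit, at 0.37 ± 0.05, and its groups did not overlap. *Ifnar1* passed it in the other direction, at −0.30 ± 0.04, with 35694, 35354 and 36502 in WT against 28216, 29159 and 29746 in *UTX TCD* cells. *Ifnar2*, *Jak1* and *Tyk2* had log2 fold changes of −0.03, 0.11 and −0.07 and did not pass the p limit. The list's median was 0.11.

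Of the 11 interferon regulatory factors and their binding partners, 3 were called higher and none lower. *Irf7*, which amplifies interferon transcription, rose from 15322, 12369 and 16108 in WT to 36053, 38041 and 35925 in *UTX TCD* cells, for a log2 fold change of 1.34 ± 0.09 (SE; limma adjusted p = 8.1e-06). *Irf5* was at 114, 170 and 129 in WT against 322, 279 and 289 in *UTX TCD* cells, for a log2 fold change of 1.12 ± 0.18. *Irf4*, a factor of T cell receptor signalling, was at 0.62 ± 0.18, and its call was lost without WT replicate 1, WT replicate 3 or *UTX TCD* replicate 3, at limma adjusted p of 0.0742, 0.0662 and 0.0726, and with DESeq2 on recovered reads, at an adjusted p of 0.0658. The list's median of −0.02 was close to that of all genes.

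The enzymes that attach ISG15 were called higher in 3 of 5 cases. *Ube2l6*, the conjugating enzyme, went from 63.4, 44.4 and 63.3 in WT to 187, 135 and 240 in *UTX TCD* cells (log2 change 1.68 ± 0.26). *Herc6*, the mouse ligase, went from 12920, 14352 and 12454 to 31271, 31010 and 29733 (1.21 ± 0.06). In both, the genotypes did not overlap, and the limma adjusted p was 0.000892 for *Ube2l6* and 9.85e-07 for *Herc6*. *Trim25*, which can also act as an ISG15 ligase, rose by 0.57 ± 0.06 on the log2 scale. The activating enzyme *Uba7* passed the p limit at 0.29 ± 0.07, under the fold limit, and *Ube2e2* was at 0.35 ± 0.27 with overlapping groups.

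Among the close relatives of the effectors, 2 of 7 tested were called, both higher. *Mx2*, the paralog of *Mx1*, had 4034, 3236 and 4194 in WT against 16945, 17509 and 11648 in *UTX TCD* cells, for a log2 fold change of 1.99 ± 0.15 (limma adjusted p = 1.89e-05). *Ifit1bl2* had 231, 184 and 247 in WT against 319, 297 and 350 in *UTX TCD* cells, at 0.55 ± 0.15, and its call was lost without WT replicate 2 (0.43) or *UTX TCD* replicate 3 (0.49). *Ifit1bl1* was not called, at 0.17 ± 0.16. *Cmpk1*, the housekeeping relative of *Cmpk2*, was at −0.17, and the other eIF2α kinases *Eif2ak1*, *Eif2ak3* and *Eif2ak4* were at −0.09, −0.07 and 0.17, none of them called. Of 11 partners of PKR in eIF2α control, *Ddit3*, a stress-induced transcription factor, was the only one called, at 0.62 ± 0.08 (limma adjusted p = 0.00032), and the median was 0.0019.

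Other interferon-induced genes were called higher in 36 of 67 tested and lower in 2, with a median log2 fold change of 0.63. The largest rises were *Tlr3*, a sensor of double-stranded RNA, at 4.59 ± 0.18, *Ifi44* at 3.74 ± 0.43, the membrane restriction factor *Ifitm3* at 2.99 ± 0.25 and *Phf11a* at 2.27 ± 0.16. These 4 genes were low in WT cells, with mean normalized counts of 19.0, 37.4, 28.6 and 165, against 479, 596, 238 and 789 in *UTX TCD* cells. *Ifi44* had 319, 362 and 1106 in *UTX TCD* cells, so its mean of 596 ± 443 (SD, n = 3) rests largely on replicate 3. Without that library its log2 fold change was 3.18. Adding 1 before taking the log understates the change of such low genes. *Plac8* fell by 1.46 on the log2 scale (SE 0.25; limma adjusted p = 0.00176). *Ccl5*, a chemokine of effector T cells, was at −1.34 ± 0.42 with overlapping groups, and its call was lost without WT replicate 1, WT replicate 2, *UTX TCD* replicate 1 or *UTX TCD* replicate 2, at limma adjusted p of 0.0579, 0.112, 0.083 and 0.105. It was also lost with edgeR and DESeq2 on recovered reads, at adjusted p of 0.0731 and 0.13. Of the 29 genes not called, 15 passed the p limit upward and 1 downward. Over all genes tested, 11921 were not called, of which 1405 passed it upward and 1941 downward. Some of these genes also respond to interferon γ.

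Of 21 genes listed as dampers of interferon or other cytokine signalling, 4 were called higher and none lower. *Cish* went from 756, 827 and 742 in WT to 2423, 2705 and 2161 in *UTX TCD* cells, for a log2 fold change of 1.64 ± 0.09 (limma adjusted p = 3.92e-06). *Nlrx1*, a mitochondrial regulator, was at 1.07 ± 0.10, and the cytokine signalling suppressors *Socs3* and *Socs1* were at 0.76 ± 0.11 and 0.66 ± 0.07. The list's median was 0.02.

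Nucleic acid sensors and their adaptors had 2 genes called higher and 1 lower of 14 tested, with a median of 0.08. This is close to the 10.5% higher and 7.05% lower over all genes tested, so nothing particular to the list is read from the counts. *Rigi*, a cytosolic RNA sensor, rose by 0.66 ± 0.08 and *Cgas*, a cytosolic DNA sensor, by 0.68 ± 0.07. *Sting1*, the adaptor downstream of *Cgas*, had 23456, 20151 and 23608 in WT against 15372, 15267 and 15214 in *UTX TCD* cells, for a log2 fold change of −0.55 ± 0.06 (limma adjusted p = 0.000156), and its call was lost with libraries scaled to the same total, at −0.49.

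In the interferon γ pathway, 1 of 8 tested genes was called higher and 2 lower, and the median was 0.26. *Ifngr1* had 18521, 21610 and 19169 in WT against 9416, 9684 and 11133 in *UTX TCD* cells, for a log2 fold change of −0.97 ± 0.08 (limma adjusted p = 2.14e-05). *Ifngr2* was at −0.53 ± 0.06 and the GTPase *Irgm1* at 0.53 ± 0.07. Both are close to the fold limit: the *Ifngr2* call was lost without WT replicate 3 (−0.49) or *UTX TCD* replicate 3 (−0.47) and with libraries scaled to the same total (−0.46), and the *Irgm1* call without WT replicate 2 (0.48), *UTX TCD* replicate 1 (0.49) or *UTX TCD* replicate 2 (0.49). *Ifng* itself was near the filter, with 10.9, 20.7 and 32.8 in WT against 6.75, 10.4 and 31.7 in *UTX TCD* cells. *Jak2*, *Icam1* and *Igtp* passed the p limit at 0.24, 0.28 and 0.38, and *Ciita* was at 0.35 ± 0.23.

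**Figure D2:**
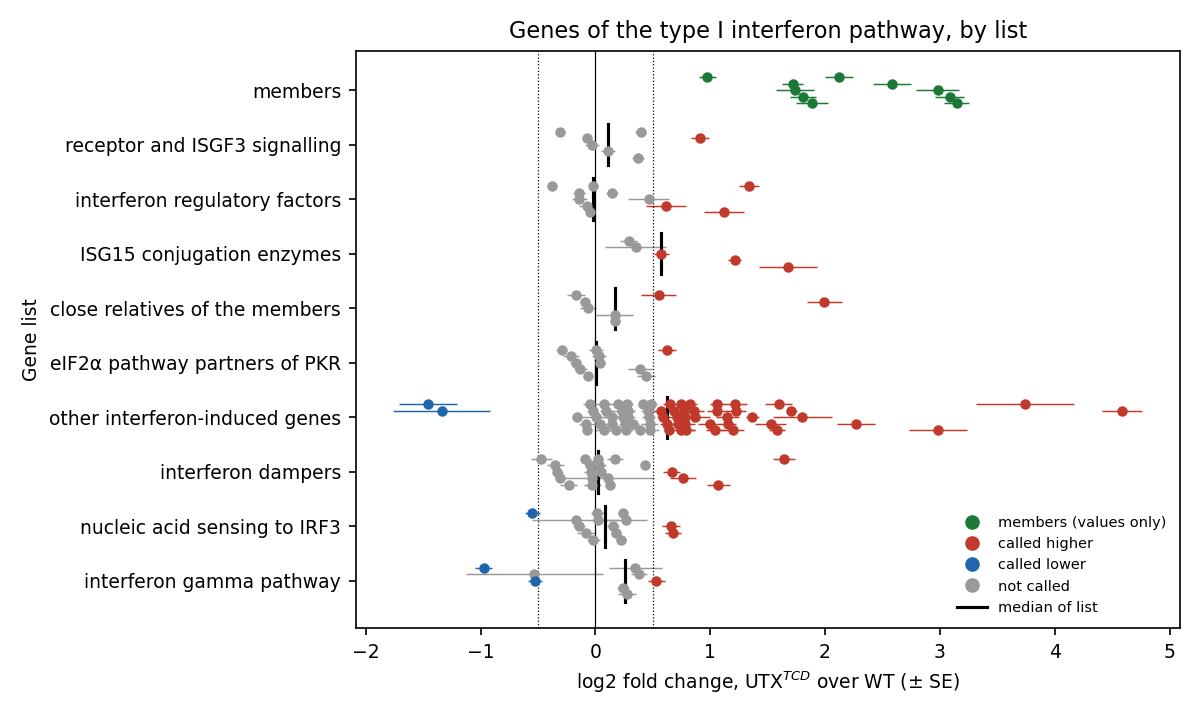
Log2 fold change (*UTX TCD* over WT, x axis, with its SE) of each tested gene in the effector group and in 9 lists of the pathway, with the median of each of the 9 lists as a black line and the fold limits of 0.5 as dotted lines. Other interferon-induced genes have 36 points called higher and 2 called lower, while the receptor and ISGF3 list has 1 called gene, *Stat2*.

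Markers were read for the sorted cells and for other cells that a lymph node holds. All 11 genes of CD8+ T cell identity were tested and none was called, though 5 passed the p limit downward and 2 upward, under the fold limit and with groups that did not overlap. Over all 14459 genes tested, 1941 passed the p limit downward and 1405 upward without a call. Groups did not overlap for 3774 genes that were lower in *UTX TCD* cells and 3731 that were higher. Their summed normalized counts were 1421976, 1357129 and 1381425 in WT against 1383710, 1347667 and 1276602 in *UTX TCD* cells, with *Cd8a* the most abundant. For plasmacytoid dendritic cells, the main interferon producers, *Klk1* and *Cd300c* had 0 reads in all libraries and *Siglech* had at most 8.89 normalized counts. That list's sum was 759, 979 and 698 in WT against 1656, 1710 and 1228 in *UTX TCD* cells, nearly all of it *Tcf4*, which was called higher (0.92 ± 0.15). *Spib* of this list was at 0.78 ± 0.36 and not called.

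B cell markers summed to 2951, 2437 and 2800 in WT against 1221, 1082 and 1000 in *UTX TCD* cells, with *Cd79b* the most abundant. It had 2502, 1930 and 2465 in WT against 648, 633 and 470 in *UTX TCD* cells and was called lower at −1.98 ± 0.15. *Ms4a1* was called higher at 5.94, 19.7 and 8.39 against 20.2, 29.6 and 73.0, a call lost without WT replicate 1 or 3 or *UTX TCD* replicate 2 or 3, at limma adjusted p of 0.119, 0.0889, 0.0681 and 0.112. *Cd79a* was not called, at 0.19 ± 0.20, and *Pax5* had at most 11.1 normalized counts. Myeloid markers summed to 824, 855 and 663 in WT against 1179, 898 and 1187 in *UTX TCD* cells, with *Cd68* the most abundant and not called. *Mpeg1* was called higher at 1.79 ± 0.29 and *Csf1r* lower at −1.85 ± 0.39, both named after their values were seen. *Cd14* had at most 3.96 normalized counts.

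NK cell markers summed to 42687, 40818 and 44528 in WT against 38869, 40159 and 48576 in *UTX TCD* cells, with *Nkg7*, which CD8+ T cells also express, the most abundant over all 6 libraries (log2 fold change −0.46, not called). *Eomes* averaged 21671 in *UTX TCD* cells, above the 20847 of *Nkg7*, and was called higher at 0.62 ± 0.12, a call lost without *UTX TCD* replicate 3 (0.46), while *Klrb1c* was not called at −1.18 ± 0.59 and *Ncr1* had 0 reads in 4 of the 6 libraries. CD4 and regulatory T cell markers summed to 475, 373 and 442 in WT against 373, 350 and 344 in *UTX TCD* cells. *Foxp3* led that list and was not called at 0.05 ± 0.15, *Zbtb7b* was called lower at −1.85 ± 0.44, and so was *Cd4*, at −0.74. The *Cd4* call was lost without WT replicate 1, 2 or 3 or *UTX TCD* replicate 1 or 3, at limma adjusted p of 0.0988, 0.101, 0.0633, 0.0619 and 0.0798. It was also lost with DESeq2 on recovered reads (adjusted p 0.0573), with libraries scaled to the same total (limma adjusted p 0.0543) and without the filter on low values (limma adjusted p 0.0673). Stromal and endothelial markers summed to 31654, 29644 and 31803 in WT against 37538, 37677 and 33525 in *UTX TCD* cells, nearly all *Pecam1*, which was not called (0.22). *Cdh5* had 24.8, 21.7 and 9.91 in WT and 0 in all *UTX TCD* libraries, *Col1a1* was not called at 0.28 ± 0.22, and *Pdpn* and *Lyve1* had at most 6.75 and 2.21. In bulk samples, fewer cells of a type and less RNA per cell cannot be told apart, and the part of other cell types in the effector values was not tested.

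Accessibility was read from the peaks that the authors listed, each with 1 pooled log2 mean per genotype and no value per library. The list holds 23932 peaks, of which 16466 (68.8%) had a higher mean in *UTX TCD* cells, and it holds only peaks that passed an FDR of 0.05 in the authors' own comparison. At least 1 listed peak was assigned to 6889 of the 14459 genes tested (47.6%), and to 7 of the 10 effectors. The effectors had 13 such peaks, and the authors' mean was higher in *UTX TCD* cells for 13 of 13. The difference of means ranged from 0.27 to 1.66 on the log2 scale with a median of 0.74, beside 0.69 over all 16466 peaks with a higher mean in *UTX TCD* cells. A peak absent from the list is not known to be unchanged, and the means carry no spread.

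*Mx1* had 4 listed peaks on chromosome 16 (mm10). The promoter peak at chr16:97462798-97463198, 92 bases from the annotated start, had a mean of 9.13 in WT against 10.19 in *UTX TCD* cells. In intron 2 of 10, chr16:97459634-97460034 went from 6.54 to 8.20, the largest difference of the 13 peaks. Peaks outside the gene were at chr16:97443878-97444278, which is intergenic (6.56 and 7.5), and at chr16:97478659-97479059, in intron 3 of 7 of *Fam3b* (5.55 and 6.66).

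*Usp18* on chromosome 6 also had 4. Both peaks in intron 4 of 10 had higher means in *UTX TCD* cells, chr6:121255721-121256121 with 4.85 in WT against 6.20 in *UTX TCD* cells, and chr6:121260575-121260975 with 7.05 and 7.66. An intergenic peak centred 2585 bases before the start, chr6:121243121-121243521, had 8.82 and 9.56. The peak chr6:121272284-121272684, which began 1367 bases past the end of the gene and overlaps *Gm44148*, had 10.01 and 10.36.

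*Rsad2* and *Cmpk2* lie head to head on chromosome 12, 12664 bases apart, and each had 1 listed peak at its own promoter. That of *Rsad2*, chr12:26456307-26456707, had 10.51 in WT against 11.02 in *UTX TCD* cells, and that of *Cmpk2*, chr12:26469113-26469513, had 10 and 10.54. Both differences, 0.51 and 0.54, were below the median of the 13 peaks. *Eif2ak2* had 1 promoter peak, chr17:78882407-78882807, with 7.98 in WT against 8.73 in *UTX TCD* cells, where *Gm26637* is annotated as well.

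The *Ifit* genes share a span of 99.5 kb on chromosome 19. The peak named for *Ifit1*, chr19:34640633-34641033, covers the 61 bases between the starts of *Ifit1* and *Ifit1bl2*, which run in opposite directions, and had the smallest difference of the 13, 10.37 in WT against 10.64 in *UTX TCD* cells. *Ifit3* was named for chr19:34570030-34570430, 12689 bases outside that gene and inside *Ifit2*, in the 5′ untranslated exon 2 of 3, where the mean was 7.74 in WT against 8.51 in *UTX TCD* cells. By position it lies in *Ifit2*, which had no peak under its own name. No listed peak carried the name of *Isg15*, *Ifit2* or *Ifit3b*. The listed peak nearest to the start of *Isg15*, 14370 bases away at chr4:156186248-156186648, was assigned to *Agrn* and had 6.60 in WT against 7.28 in *UTX TCD* cells. By position it lies within *Agrn*, whose mean normalized count was 7943 in WT against 23666 in *UTX TCD* cells. The listed peak nearest to *Ifit3b*, 15921 bases away at chr19:34623251-34623651, was assigned to *Ifit1bl2* and had 8.39 and 8.93.

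**Figure D3:**
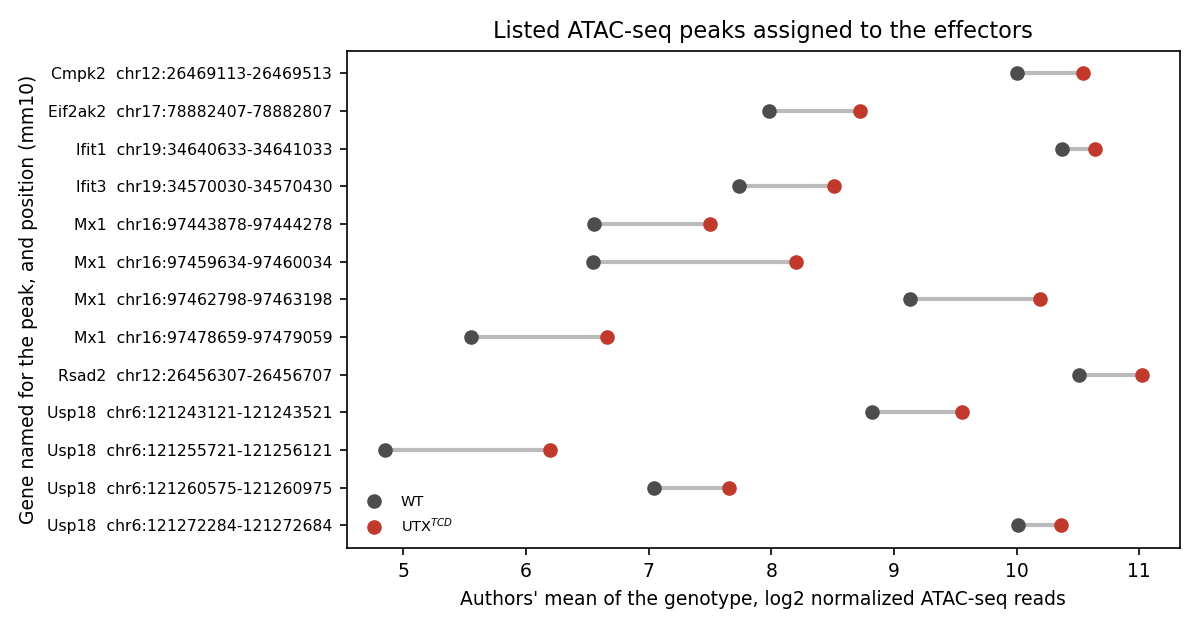
The 13 listed ATAC-seq peaks assigned to the effectors, with the authors' pooled log2 mean for WT and *UTX TCD* on the x axis and no error, since no value per library was used. The mean is higher in *UTX TCD* cells for 13 of 13 peaks, from a difference of 0.27 at the *Ifit1* peak to 1.66 in intron 2 of *Mx1*.

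Listed peaks of the pathway lists went in both directions. Their 256 peaks had a higher mean in *UTX TCD* cells in 148 cases and a lower one in 108, beside 68.8% higher over all listed peaks. For the 53 genes called higher, 35 had a listed peak, beside 47.6% of all genes tested, and 54 of their 72 peaks had the higher mean in *UTX TCD* cells, beside the same 68.8%. Nothing particular to these genes is read from the counts. *Mx2* had 4 listed peaks, 4 of them with the higher mean in *UTX TCD* cells, whereas *Stat2* and *Irf7* had none. *Ifngr1*, which was called lower, had 5 peaks, all with the lower mean in *UTX TCD* cells. Peaks of other called genes went the other way from the expression: *Trim25* and *Ly6e*, both called higher, had 3 listed peaks each, 0 of them with the higher mean in *UTX TCD* cells, *Rnf213*, called higher, had 1 with the lower mean, and *Ifngr2*, called lower, had 1 with the higher mean. These genes were picked out after their values were seen.

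Promoter sequences, from 250 bases before to 50 after the start of a transcript, were taken from RefSeq (GRCm38.p6, which is mm10). They matched 8 of the 10 effectors with 9 promoters, all but *Usp18* and *Mx1*. For *Ifit2*, *Ifit3*, *Ifit3b* and *Cmpk2* the transcript start lies inside the annotated span of the gene, and it is not the first base of that span, from which the distance of *Ifit3b* to its nearest peak was measured. The 250 bases before it, chr19:34583279-34583528 for *Ifit3* and chr19:34607707-34607956 for *Ifit3b*, are both within the span of the gene. The letters of an ISRE, GAAANNGAAA on either strand, with overlapping matches allowed, were found in 6 of these 9 promoters, those of *Isg15*, *Rsad2*, *Eif2ak2*, *Ifit1*, *Ifit3* and *Ifit3b*. Of all 32851 promoters of this length, 3.44% held them. The 2 promoters of *Ifit2* and that of *Cmpk2* did not hold these letters in this window. A match is a description of the sequence and not evidence of binding.

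The 250 bases before the starts of *Isg15* and *Rsad2* are shown because neither overlaps another annotated gene and the 2 genes differ in having no listed peak and a promoter peak. Capitals mark the matched letters, and each sequence runs 5′ to 3′ on the minus strand, the strand of the gene, at chr4:156200819-156201068 for *Isg15* and chr12:26456453-26456702 for *Rsad2*.
Isg15: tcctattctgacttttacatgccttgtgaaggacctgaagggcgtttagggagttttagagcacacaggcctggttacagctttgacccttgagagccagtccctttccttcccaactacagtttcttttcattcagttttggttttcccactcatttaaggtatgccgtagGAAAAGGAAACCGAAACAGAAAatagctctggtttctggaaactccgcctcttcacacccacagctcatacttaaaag
Rsad2: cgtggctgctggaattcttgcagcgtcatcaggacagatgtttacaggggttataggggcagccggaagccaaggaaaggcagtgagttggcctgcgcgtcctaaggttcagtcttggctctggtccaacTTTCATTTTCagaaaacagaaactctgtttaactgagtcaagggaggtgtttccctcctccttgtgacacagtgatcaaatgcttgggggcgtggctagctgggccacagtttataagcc
In *Isg15* 3 overlapping matches made 1 continuous stretch that starts 78 bases before the gene.

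Short windows of 30 bases follow for the other promoters with a match, each on the strand of its gene, with capitals as before. *Ifit1*, chr19:34640785-34640814 on the plus strand, has 2 matches that lie inside its listed peak. For *Eif2ak2*, chr17:78882535-78882564 on the minus strand, the match begins 19 bases past the start and is also inside the listed peak. *Ifit3*, chr19:34583363-34583392, and *Ifit3b*, chr19:34607759-34607788, both on the plus strand, have the same 30 bases. Each has a second match, within chr19:34583397-34583426 and chr19:34607793-34607822, which is not shown, and their promoters were 99.2% identical over 260 aligned bases.
Ifit1: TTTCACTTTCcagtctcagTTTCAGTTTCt
Eif2ak2: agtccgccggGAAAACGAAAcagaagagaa
Ifit3: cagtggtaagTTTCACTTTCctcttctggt
Ifit3b: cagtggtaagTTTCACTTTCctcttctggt

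The same letters were found in 5 of the 13 peaks (38.5%), those of *Eif2ak2*, *Ifit1*, *Rsad2*, the one named for *Ifit3* and 1 intronic peak of *Usp18*. Beside this stand 6.88% of the 23908 listed peaks on assembled chromosomes, and 7.4% of the 16464 of them with a higher mean in *UTX TCD* cells. The matches in the peaks of *Eif2ak2*, *Ifit1* and *Rsad2* are those already given for their promoters. The *Usp18* window, chr6:121256063-121256092, is in intron 4, and the *Ifit3* window, chr19:34570183-34570212, is in the untranslated exon of *Ifit2*. Both are shown on the plus strand because no promoter peak of these genes is listed. The 4 peaks of *Mx1* did not hold these letters.
Usp18 intronic peak: tccatggTTTCTCTTTCAATTTCttgcttg
Peak named for Ifit3: tactttctggTTTCAATTTCtcttctttgg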

How the data were processed

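RNA-seq and ATAC-seq of sorted T_prog_ cells were grouped by genotype from the sample labels. For RNA-seq, the authors aligned reads with HISAT2 2.2.1 to mm10, counted them per gene with featureCounts and deposited counts divided by DESeq2 size factors, a normalized signal. For ATAC-seq, the authors aligned with Bowtie2, called peaks with MACS2 and deposited DiffBind log2 means per genotype with HOMER annotation. The annotation, strand and multimapping settings of the gene counts are not given in the sources used here. The deposited comparison columns (fold changes, standard errors, p-values and FDR) were not used, except to test that every listed peak has an FDR under 0.05.

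Genes averaging 10 or more normalized counts were fitted with limma 3.58.1 (R 4.3.3; trend, Benjamini-Hochberg) on log2(normalized count + 1), so all fold changes on the log2 scale carry this pseudocount. Whole reads were recovered from the size factors, with 100% of values whole within 0.01; on these reads edgeR 4.0.16 called 2541 genes and DESeq2 1.42.0 called 2422. The fit and the motif search were tested on simulated data. Peaks and sequences were read with Python 3.11.15, pandas 2.3.3 and pysam 0.24.0.

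The text names all 10 effectors, *Kdm6a*, every tested gene of lists with at most 9 tested genes, otherwise up to 4 called genes per direction with the largest log2 fold change, the most abundant marker of each marker list and all genes of those with at most 5, and the 5 genes most like the effectors. Some genes that this rule names are not reported here. The effectors and lists were chosen with earlier results of these data known. Alternatives were pseudocounts of 0.5 and 5, other filters, scalings, tools and fold limits, a replicate block, each library left out, peaks within 1 kb or differing by over 0.5, and other spellings of the motif. Leaving out WT replicate 2 and *UTX TCD* replicate 3 together, and counting *Ifit3* and *Ifit3b* as 1 gene, were added after seeing the data.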

Additional observations from a re-analysis of the deposited data

How the results depend on the processing

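The log2 fold changes of the effectors kept their direction in all 169 values from 17 settings, from 0.90 to 1.04 for *Ifit2* and from 3.06 to 3.27 for *Mx1*. All 10 were called under every setting, 9 of 9 with *Ifit3* and *Ifit3b* as 1 gene, which is no sign of stability because the same comparison chose them. Without a limit on the fold, 5887 genes were called, 2924 higher and 2963 lower, and 99 genes of the pathway lists, 83 higher and 16 lower, since that setting drops a condition. Pathway genes called lower were 3 with libraries scaled to the same total and 3 at a fold over 1.5. Of the 58 pathway genes called, 52 were called under all settings that keep the fold limit of 0.5, 6 lost the call under at least 1 and 8 others gained it. Of the 13 peaks, 5 lay within 1 kb of the start and 11 differed by over 0.5. With the motif shortened to GAAANNGAA, or with 2 or 3 bases between the repeats, 6 promoters of the effectors held it, as did 8.56% and 5.99% of all promoters.

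Leaving out each library in turn gave 2164 to 2570 called genes, 1317 to 1540 higher and 847 to 1030 lower, with 56 to 60 pathway genes, 52 to 56 higher and 4 to 5 lower. Without WT replicate 2 and *UTX TCD* replicate 3, added after seeing the data, 2676 genes and 61 pathway genes were called. Same-numbered libraries did not deviate together (r of 0.31, −0.20 and 0.09), so they were not treated as pairs, and with the replicate number as a block 2474 genes and 58 pathway genes were called.

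The RNA-seq values rest on 3 libraries per genotype, of which *UTX TCD* replicate 1 had the fewest reads. Peaks had pooled means only, so no spread can be given for them, and only peaks that passed the authors' limit are listed. Genes that overlap or have near copies are uncertain.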
